A study of Homo sapiens with 24 samples.

Results

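Within a series on compounds that raise TRIB1 in HepG2 cells, 2 such treatments were set directly against each other after 1 h. One was BRD8518, a compound given by code name only, at 1 uM. The other was oncostatin M (OSM), a cytokine of the interleukin-6 family, at 100 ng/mL. The comparison used the 3 arrays labelled for BRD8518 at 1 h and the 3 arrays labelled for OSM at 1 h, which are 6 of the 24 arrays of the series. HepG2 is an established cell line from a human liver tumour that still makes many hepatocyte proteins. Vehicle wells (DMSO, 3 arrays at 1 h) gave the background, and the medium of all these groups carried 0.25% DMSO. Transcripts were measured on an Affymetrix whole-transcript array, and levels are log2 RMA values, so a difference of 1 is a 2-fold change. Differences are BRD8518 minus OSM unless stated, with the standard error (SE) of the fit. A gene passed the test where limma's p, adjusted by Benjamini-Hochberg over 14884 genes, was under 0.05. Whether the 3 arrays of a group stand for separate cultures is not in the labels, and the p-values rest on array-to-array spread that could be purely technical. The titles carry a position code of unstated meaning. Its letter is C for BRD8518 replicates 2 and 3 at 1 h and B for the other 1 h arrays, so letter and treatment are partly confounded.

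TRIB1 encodes a pseudokinase of the Tribbles family that brings the ubiquitin ligase COP1 to substrates such as C/EBP alpha, and in liver it is known for its link to lipoprotein production. OSM binds receptors built from gp130 with OSMR or LIFR, and the attached JAK kinases phosphorylate STAT3, which moves to the nucleus. In hepatocytes this signal is known to switch on acute phase protein genes and the SOCS genes, whose products shut the same receptors down again. Gp130 receptors also feed the MAP kinase cascade, which acts on immediate-early genes such as EGR1.

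After 1 h the treatments differed at 349 of 14884 genes (2.34%). BRD8518 gave the lower level at 223 of them (1.50% of genes tested) and the higher level at 126 (0.847%). These shares are the background for the counts in each gene list below. At least 2-fold differences that passed the test numbered 49 with BRD8518 lower and 14 with it higher. Among the 349 genes, which had already passed the test, the arrays of the groups did not overlap at 348. The exception, noted after its values were seen, was ZNF501 at 0.63. Such separation adds little to the test. The arrays of APOB also lay apart, at a difference of 0.06 (adjusted p 0.90 in limma's test). The median difference over all genes was 0.01 with a median SE of 0.11. The largest gaps were SOCS3, LBP and IRF1, all far higher with OSM. The panel gene of the series, TRIB1, was also higher with OSM, while ARRDC3, SMAD7 and TXNIP were higher with BRD8518.

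**Figure D1:**
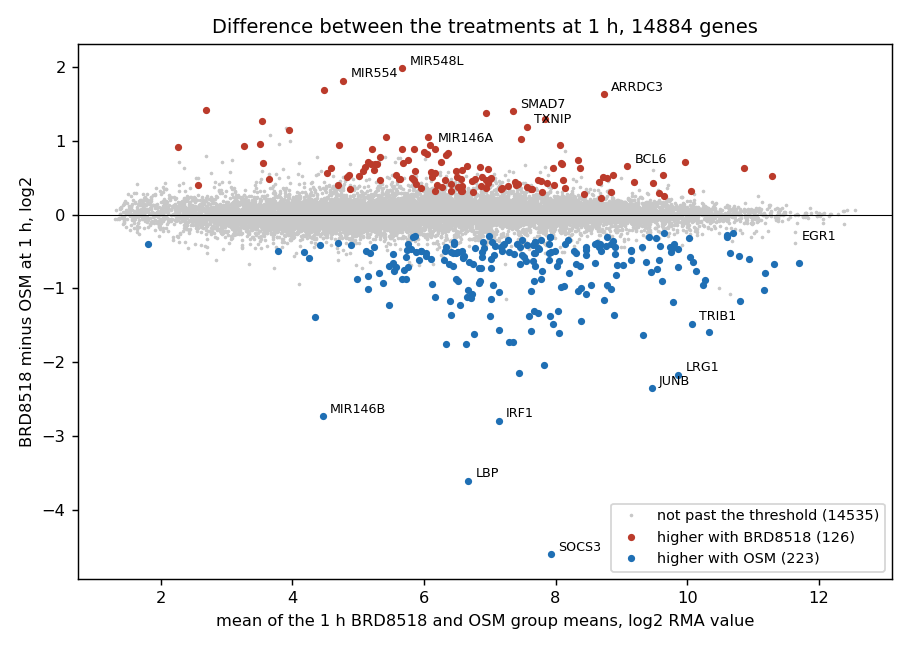
Difference between the treatments after 1 h (vertical axis, BRD8518 minus OSM, log2) against the mean of the group means (horizontal axis, log2 RMA value), with 1 point per gene. Blue points are the 223 genes lower with BRD8518, red points the 126 higher with it, and grey points the 14535 genes that did not pass. The blue points reach -4.60 (SOCS3) and the red points 1.98 (MIR548L).

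The same fit gave each treatment against DMSO as the background for the genes named here. These comparisons share arrays with the direct one and with each other, so their values are set side by side only. BRD8518 differed from DMSO at 38 genes (0.255%), 33 higher and 5 lower, of which MIR17HG (-0.94) was the lowest. OSM differed from DMSO at 423 genes (2.84%), 302 higher and 121 lower. These counts are the background for the list members that differed from DMSO. Hepatocyte markers were at a mean level of 11.25 to 11.28 on the BRD8518 arrays, 11.39 to 11.42 with OSM and 11.22 to 11.32 with DMSO. Of 8 markers measured, only FGB, a fibrinogen chain that is itself an acute phase gene, passed the test between the treatments. The endothelial markers measured averaged 5.09 to 5.11 with BRD8518, 5.18 to 5.34 with OSM and 5.01 to 5.21 with DMSO. The macrophage markers averaged 6.78 to 6.94, 6.90 to 7.03 and 6.74 to 6.94 in the same order, and log2 RMA values have no zero that would mark absence. Of 6 macrophage markers 1 passed, CD14, at -0.76, and of 5 endothelial markers 1 passed, LYVE1, at -0.67, while 0 of 3 stellate and 0 of 5 cholangiocyte markers did. CD14 is also a member of the acute phase list, and OSM raised it over DMSO by 0.78 (adjusted p 0.0016 in limma's test). LYVE1 lost its call without BRD8518 replicate 1 (-0.69) or 3 (-0.61) and without OSM replicate 1 (-0.57) or 3 (-0.70). The cultures were of a single cell line, so these markers describe levels in HepG2 cells, and no test of cell types was run. In bulk RNA, fewer HepG2 cells making a transcript and less transcript per cell cannot be told apart.

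TRIB1 stood at 9.30, 9.35 and 9.34 on the BRD8518 arrays and at 10.69, 10.89 and 10.84 on the OSM arrays. The DMSO arrays gave 9.15, 9.12 and 9.12. The OSM arrays all lay above the other 6, and the BRD8518 arrays lay just above the DMSO arrays without overlap. The difference between the treatments was -1.48 ± 0.08 (SE, n = 3 arrays each, 95% interval -1.65 to -1.31), or 2.78-fold, with an adjusted p of 4.1e-11 in limma's test. Against DMSO, BRD8518 differed by 0.20 (adjusted p 0.86 in limma's test) and OSM by 1.68 (adjusted p 3.1e-12). TRIB3, a relative of TRIB1 known as a stress-response gene, was at 8.91, 8.87 and 8.85 with BRD8518 and at 9.14, 9.20 and 9.26 with OSM. These arrays did not overlap either, but the difference of -0.32 ± 0.09 (95% interval -0.51 to -0.14) did not pass (adjusted p 0.068 in limma's test). It passed in 7 of the alternative fits, at -0.32 to -0.35. TRIB2 differed by -0.07 (interval -0.30 to 0.15). APOB, the structural protein of the lipoproteins that the liver secretes, differed by 0.06 (-0.08 to 0.20), and MTTP, which loads lipid onto it, by 0.06 (-0.33 to 0.44). Of the 6 measured genes of the TRIB1 axis, 1 was lower with BRD8518 and 0 higher, and the median difference was -0.01.

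Genes that restrain JAK-STAT signalling held the largest difference of the comparison. Of 8 measured members 4 were lower with BRD8518 and 0 higher, beside 1.50% and 0.847% of all genes. The list's median was -0.50 against 0.01 over all genes. SOCS3, which blocks JAK kinases at the gp130 receptor, was at 5.32, 5.87 and 5.69 with BRD8518 and at 10.30, 10.26 and 10.13 with OSM. DMSO gave 5.40, 5.62 and 5.41, so the BRD8518 arrays overlapped the vehicle arrays while the OSM arrays stood far above both. The difference of -4.60 ± 0.14 is 24.3-fold (adjusted p 7.4e-16 in limma's test), and a second, dimmer SOCS3 probe set gave -3.12. CISH, a SOCS family member best known downstream of STAT5, was at 5.90, 6.06 and 5.91 with BRD8518, at 7.59, 7.67 and 7.48 with OSM and at 5.74, 5.91 and 5.94 with DMSO. The BRD8518 and DMSO arrays overlapped and the OSM arrays lay apart from them, with a difference of -1.62 ± 0.09 between the treatments. SOCS1 differed by -1.60 ± 0.13 and SOCS2 by -0.75 ± 0.09, and neither passed between BRD8518 and DMSO.

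The receptors and kinases of the pathway moved little beside their feedback genes. Of 13 measured gp130 receptor and JAK-STAT components, 2 were lower with BRD8518, 0 were higher, and the median was -0.06. The receptor subunit OSMR was at 9.46, 9.32 and 9.34 with BRD8518 and at 9.82, 9.80 and 9.79 with OSM, a difference of -0.43 ± 0.07, and DMSO gave 9.29, 9.31 and 9.31. All OSM arrays lay above the other 6. STAT3 itself differed by -0.31 ± 0.08 (adjusted p 0.039 in limma's test). That call was lost without any single array of the 6, at differences of -0.29 to -0.33.

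STAT3 target genes were mostly higher with OSM. Of 19 measured, 12 were lower with BRD8518, 2 were higher and 5 did not pass, and the median was -0.68. Over all genes 1.50% were lower and 0.847% higher. Against DMSO, 4 of the 19 were higher with BRD8518 and 13 with OSM, beside 33 and 302 of all 14884 genes. IRF1, a transcription factor of interferon responses, was at 5.65, 5.74 and 5.84 with BRD8518, at 8.38, 8.72 and 8.50 with OSM and at 5.62, 5.61 and 5.54 with DMSO. The OSM arrays formed a group of their own, with a difference of -2.79 ± 0.11 (6.92-fold, adjusted p 8.5e-14 in limma's test). TIMP1, an inhibitor of matrix metalloproteinases, differed by -1.36 ± 0.16. The 2 targets with the opposite sign were BCL6 and MYC. BCL6, a transcriptional repressor, was at 9.49, 9.42 and 9.33 with BRD8518, at 8.69, 8.86 and 8.73 with OSM and at 8.68, 8.66 and 8.58 with DMSO. Here the BRD8518 arrays were the high group, and the OSM arrays lay just above the DMSO arrays without overlap. The difference of 0.66 ± 0.08 passed (adjusted p 2.2e-05 in limma's test), as did BRD8518 against DMSO (0.77), while OSM against DMSO did not (0.12). MYC differed by 0.25 ± 0.06, and its call was lost without BRD8518 replicate 2 (0.21) or 3 (0.24) and without OSM replicate 1 (0.25), 2 (0.26) or 3 (0.25). It was also lost after quantile normalization (0.24), in a fit of the compared groups only (0.25) and with the array's position letter as a fixed term (0.14).

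Acute phase protein genes, the liver's secreted response to inflammation, showed 10 of 17 measured members lower with BRD8518 and 0 higher. Over all genes 1.50% were lower and 0.847% higher. The list's median was -0.60. BRD8518 differed from DMSO at 0 of the 17 (limma's test), beside only 0.255% of all genes. OSM was above DMSO at 12 of the 17, beside 302 of all 14884 genes. LBP, which hands bacterial lipopolysaccharide to CD14, was at 4.76, 4.79 and 5.05 with BRD8518, at 8.42, 8.45 and 8.54 with OSM and at 4.74, 4.87 and 4.62 with DMSO. BRD8518 and DMSO arrays were mixed, and the OSM arrays stood above both by more than 3 log2 units. The difference was -3.60 ± 0.13, or 12.2-fold (adjusted p 2.5e-14 in limma's test). Hemopexin (HPX), which binds free heme, differed by -1.72 ± 0.10, and haptoglobin (HP), which binds free haemoglobin, by -1.60 ± 0.10. The HP probe set may also read its near-identical neighbour HPR, which differed by -1.48 ± 0.14. Hepcidin (HAMP), the hormone that limits iron export, was at 9.01, 9.51 and 9.08 with BRD8518 and at 10.51, 10.24 and 10.40 with OSM, and differed by -1.19 ± 0.19. LRG1, a secreted glycoprotein outside the list that is known to rise in inflammation, was at 8.68, 8.89 and 8.77 with BRD8518 and at 10.99, 10.94 and 10.92 with OSM. Its DMSO arrays were at 8.68, 8.82 and 8.53, within reach of BRD8518 and far from OSM, and the treatments differed by -2.17 ± 0.09.

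STAT dimers bind the palindrome TTCNNNGAA, and it was sought on both strands in the 250 bases before the RefSeq start site (GRCh38.p14). Such promoters were on hand for 11 of the 15 genes with the largest lower levels under BRD8518. The motif lay in 3 of the 11, CISH, IRF1 and LRG1, in 0 of 6 promoters from the 15 genes with the largest higher levels, and in 5.92% of 10749 promoters of measured genes. These 3 promoters are printed because they carry the letters at genes that were high with OSM and near the DMSO level with BRD8518. Capitals mark the motif, whose first base, counted from the start site, is at -241, -230, -129 and -112 in CISH, -124 in IRF1 and -162 in LRG1. The windows are chr3:50611775-50612024 (CISH), chr5:132490774-132491023 (IRF1) and chr19:4540037-4540286 (LRG1), all on the minus strand and written 5′ to 3′ in the gene's direction.
CISH: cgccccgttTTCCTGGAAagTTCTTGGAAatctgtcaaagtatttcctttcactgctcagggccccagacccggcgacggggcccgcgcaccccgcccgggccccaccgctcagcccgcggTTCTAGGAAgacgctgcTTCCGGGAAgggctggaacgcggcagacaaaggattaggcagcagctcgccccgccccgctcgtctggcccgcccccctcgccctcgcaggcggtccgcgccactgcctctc
IRF1: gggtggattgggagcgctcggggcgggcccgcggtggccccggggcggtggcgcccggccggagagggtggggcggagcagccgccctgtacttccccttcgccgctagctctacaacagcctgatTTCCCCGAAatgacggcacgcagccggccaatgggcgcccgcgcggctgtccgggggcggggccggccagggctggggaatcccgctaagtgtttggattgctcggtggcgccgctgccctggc
LRG1: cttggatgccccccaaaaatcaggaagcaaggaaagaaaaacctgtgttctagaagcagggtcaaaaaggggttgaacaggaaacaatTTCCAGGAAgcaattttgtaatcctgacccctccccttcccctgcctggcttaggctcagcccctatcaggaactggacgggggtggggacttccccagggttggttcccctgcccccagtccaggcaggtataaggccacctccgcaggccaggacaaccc
A match describes the letters in the window, and binding was not measured.

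Among immediate-early transcription factors, which respond to signals without new protein synthesis, EGR1 and JUNB rose against DMSO with both treatments. Of 18 measured, 9 were lower with BRD8518, 1 was higher (MYC, above) and the median was -0.40. Over all genes 1.50% were lower and 0.847% higher. Against DMSO, 5 were higher with BRD8518 and 14 with OSM. EGR1, a zinc-finger factor downstream of MAP kinase, was at 11.23, 11.58 and 11.51 with BRD8518, at 11.85, 11.80 and 11.84 with OSM and at 8.34, 8.43 and 8.43 with DMSO. Both treatments stood about 3 log2 units above DMSO, at 3.04 for BRD8518 and 3.43 for OSM, and both passed. Between them the difference of -0.39 ± 0.13 (95% interval -0.66 to -0.12) did not pass (adjusted p 0.17 in limma's test), although the arrays did not overlap. It passed at -0.41 with array weights and at -0.48 with the mean of both EGR1 probe sets. JUNB, an AP-1 subunit, was at 8.10, 8.44 and 8.32 with BRD8518, at 10.73, 10.62 and 10.56 with OSM and at 7.22, 7.19 and 7.18 with DMSO. The 3 groups lay in 3 separate steps, and the treatments differed by -2.35 ± 0.12 (5.11-fold, adjusted p 1e-11 in limma's test). The AP-1 members FOSL2 and FOSL1 differed by -1.31 ± 0.08 and -0.95 ± 0.07, and ATF3, a stress-induced factor, by -0.87 ± 0.14.

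The EGR1 promoter is shown because EGR1 stood far above DMSO with both treatments. Capitals mark a STAT palindrome whose first base is at -228 from the start site and, nearer to it, a pair of CArG boxes, the sites of serum response factor, that begin at -105 and -83. The window is chr5:138465229-138465478 on the plus strand.
EGR1: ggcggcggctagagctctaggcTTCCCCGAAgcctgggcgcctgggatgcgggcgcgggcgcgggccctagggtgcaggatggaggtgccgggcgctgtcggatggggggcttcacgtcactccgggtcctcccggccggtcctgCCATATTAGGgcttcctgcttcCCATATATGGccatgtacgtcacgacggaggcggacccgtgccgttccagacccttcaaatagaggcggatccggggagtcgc
CArG boxes lay in 1.18% of the 10749 promoters, in 1 of the 11 from the lower genes (HPX) and in 0 of the 6 from the higher genes. The CRE TGACGTCA (2.34% of all), the AP-1 site TGANTCA (5.14%) and the EGR site GCGTGGGCG (1.1%), sought on both strands, lay in 0 of these 17 promoters. None of the printed motifs overlapped another.

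**Figure D2:**
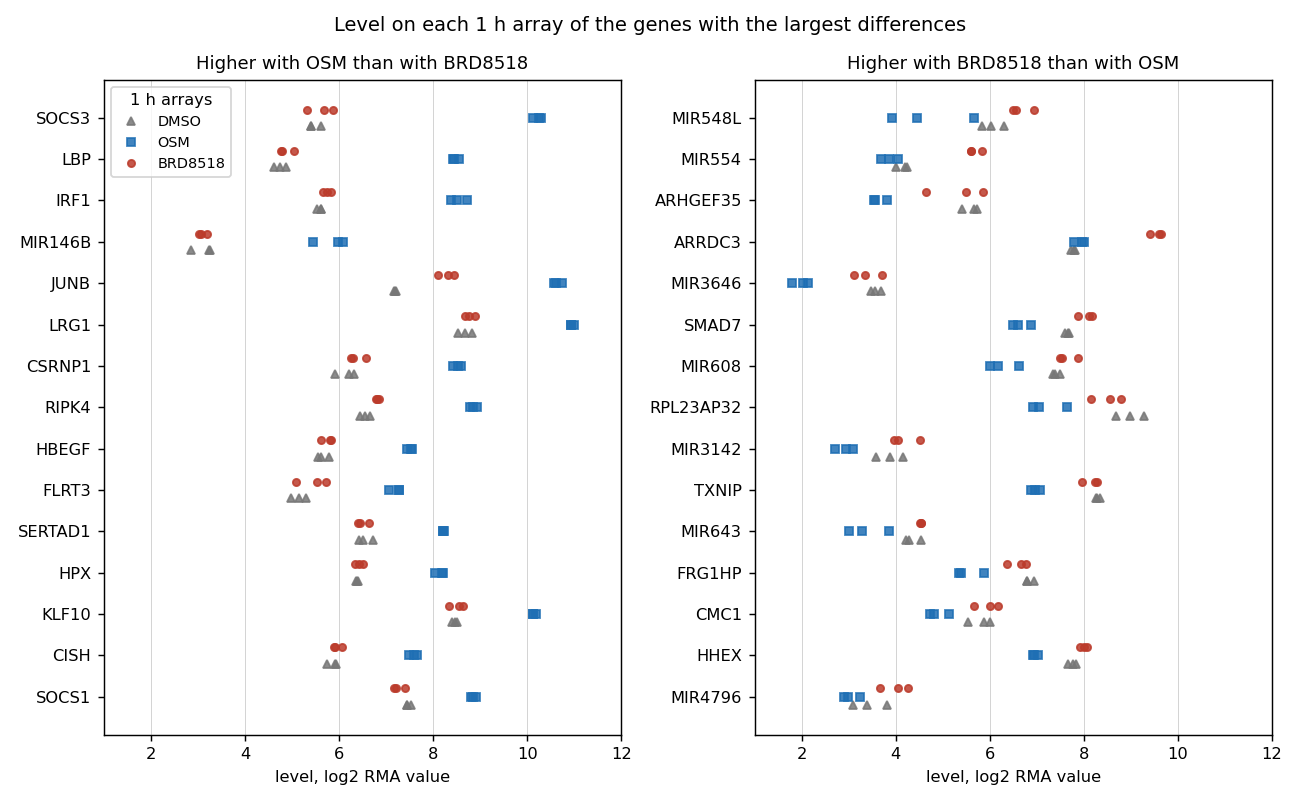
Level on each 1 h array (horizontal axis, log2 RMA value) of the 15 genes with the largest difference in each direction, with circles for BRD8518, squares for OSM and triangles for DMSO, 3 arrays each. On the left, most BRD8518 points lie near the DMSO points (SOCS3, LBP, IRF1) and JUNB shows 3 steps. On the right, ARRDC3 and MIR554 have BRD8518 apart from DMSO, while SMAD7 and TXNIP have OSM below DMSO.

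Other early regulators included KLF10, high with OSM alone, and KLF6, above DMSO with both treatments. Of 15 Kruppel-like factors 4 were lower with BRD8518 and 0 higher, beside 1.50% and 0.847% of all genes, at a median of -0.11. KLF10, a repressor known to be induced early by TGF-beta, was at 8.34, 8.63 and 8.56 with BRD8518, at 10.11, 10.12 and 10.19 with OSM and at 8.46, 8.52 and 8.41 with DMSO. It was high on the OSM arrays alone, with a difference of -1.63 ± 0.09. KLF6 was instead above DMSO with both, at 9.02, 9.29 and 9.20 with BRD8518, 10.08, 10.10 and 10.04 with OSM and 8.05, 7.97 and 7.98 with DMSO. The steps between its 3 groups were clear of overlap, and the treatments differed by -0.90 ± 0.09. KLF9 differed by -1.08 ± 0.11. CSRNP1, a nuclear protein that takes part in early transcription, differed by -2.15 ± 0.13. The transcriptional coregulator SERTAD1 differed by -1.72 ± 0.10, and RIPK4, a kinase of the RIP family, by -2.03 ± 0.11. None of these 3 passed between BRD8518 and DMSO. IER3, an early survival gene and the only measured member of its list of 11, differed by -1.03 ± 0.08. Its 11 probe sets gave -0.44 to -1.09, and those of lower level did not pass. Many of them carry identical values, so they are not 11 separate readings.

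Feedback genes of the MAP kinase cascade included DUSP6, SPRY4 and DUSP1, which were above DMSO with both treatments. Of 13 measured, 5 were higher than DMSO with BRD8518 and 7 with OSM, and between the treatments 3 were lower with BRD8518 and 1 higher, at a median of -0.19. DUSP6, a phosphatase that acts on ERK, was at 8.52, 8.63 and 8.75 with BRD8518, at 9.14, 9.20 and 9.15 with OSM and at 7.81, 7.85 and 7.79 with DMSO. The BRD8518 arrays lay between the other groups, 0.53 ± 0.08 under OSM (a difference of -0.53) and 0.81 above DMSO. SPRY4, an inhibitor of receptor tyrosine kinase signalling, differed by -0.71 ± 0.08 and DUSP1 by -0.36 ± 0.07. DUSP10, which acts on p38 and JNK, was the higher one, at 0.47 ± 0.12 (adjusted p 0.046 in limma's test), and lost its call without any single array of the 6, at 0.40 to 0.53. Growth factors and other secreted signals had 5 of 12 lower, 1 higher and a median of -0.18. The EGF receptor ligand HBEGF was at 5.63, 5.82 and 5.82 with BRD8518, at 7.56, 7.44 and 7.54 with OSM and at 5.78, 5.61 and 5.56 with DMSO. Only the OSM arrays were raised, and the difference was -1.76 ± 0.10. The cytokine LIF differed by -0.72 ± 0.10, the angiogenic factor VEGFA by -0.70 ± 0.09 and the peptide precursor ADM by -0.90 ± 0.12. FST, which binds activins, was higher with BRD8518 by 0.49 ± 0.08. FLRT3, an adhesion protein of the cell surface, differed by -1.75 ± 0.15.

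Lists with less of a difference included NF-kB and chemokine genes. Of these 3 of 15 were lower with BRD8518 and 0 higher, at a median of -0.10. For this and the lists that follow, 1.50% of all genes were lower and 0.847% higher. The adhesion receptor ICAM1 led them at -0.96 ± 0.07. NFKB2, at -0.57 (adjusted p 0.036 in limma's test), lost its call without any single array of the 6. Only 1 of the 15 was lower without BRD8518 replicate 1 or 3, or without OSM replicate 1 or 3. The chemokine CCL20, at -0.40 ± 0.10, was above DMSO with BRD8518 (0.58) and with OSM (0.98), and its call between the treatments was lost without BRD8518 replicate 1 (-0.31) or 3 (-0.40) and without OSM replicate 1 (-0.43) or 3 (-0.34). Of 12 integrated stress response genes 1 was lower (ATF3), 0 were higher and the median was -0.18. Of 12 cholesterol and LDL uptake genes 0 passed in limma's test in either direction, and the largest difference was INSIG1 at -0.21 ± 0.12. Hepatocyte transcription factors split, with FOXA2 at 0.40 ± 0.06, PROX1 at -0.64 ± 0.07 and 4 others of the 6 not passing. Among 10 SRF and YAP targets, 2 were higher with BRD8518 and 0 lower. These were CCN2, a secreted matrix protein, at 0.53 ± 0.08 and the tropomyosin TPM1 at 0.51 ± 0.08, whose second probe set gave 0.28 and did not pass. Of 8 gluconeogenic and fasting genes 2 were lower, IGFBP1 at -0.61 ± 0.14 and SIK1 at -0.38 ± 0.10. The SIK1 call was lost without any single array of the 6, at -0.34 to -0.40. The IGFBP1 call was lost without BRD8518 replicate 2 (-0.53) or 3 (-0.61) and without OSM replicate 1 (-0.60) or 2 (-0.59).

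**Figure D3:**
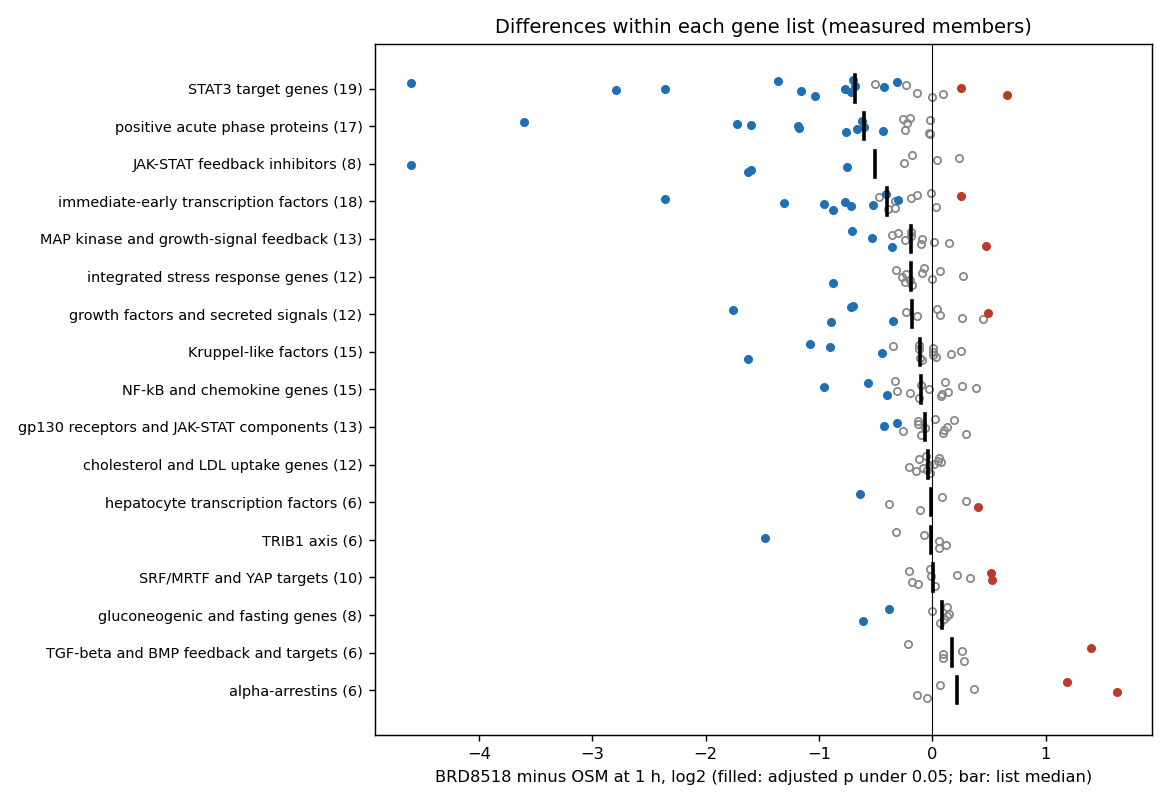
Difference between the treatments after 1 h (horizontal axis, BRD8518 minus OSM, log2) for each measured gene of 17 lists (rows, with the number measured), with filled points for genes that passed the test (blue lower, red higher with BRD8518), open points for the rest and a bar at the list's median. STAT3 targets and acute phase proteins have the lowest medians, -0.68 and -0.60, and alpha-arrestins the highest, 0.22.

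Genes higher with BRD8518 than with OSM took several forms against DMSO. Alpha-arrestins, adaptors that steer membrane proteins to ubiquitin ligases and endosomes, had 2 of 6 higher, 0 lower and a median of 0.22. The 2 differed in where DMSO lay. ARRDC3 was at 9.41, 9.61 and 9.65 with BRD8518, at 7.97, 8.01 and 7.79 with OSM and at 7.81, 7.78 and 7.73 with DMSO. BRD8518 alone was high, by 1.63 ± 0.13 over OSM (3.1-fold, adjusted p 1e-08 in limma's test) and by 1.78 over DMSO. TXNIP, which binds thioredoxin and limits glucose uptake, was at 7.96, 8.28 and 8.23 with BRD8518, at 6.89, 7.07 and 6.96 with OSM and at 8.25, 8.34 and 8.28 with DMSO. Here OSM was low, by 1.32 under DMSO (a difference of -1.32), the other groups overlapped, and the treatments differed by 1.19 ± 0.14.

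SMAD7, the inhibitory SMAD that closes TGF-beta receptors, was at 8.18, 8.10 and 7.88 with BRD8518, at 6.60, 6.88 and 6.50 with OSM and at 7.68, 7.60 and 7.66 with DMSO. The DMSO arrays lay between the treatments. The difference of 1.40 ± 0.11 (2.64-fold, adjusted p 2.2e-08 in limma's test) was made of -0.99 for OSM against DMSO, which passed, and 0.41 for BRD8518, which did not. It was the 1 of 6 TGF-beta and BMP feedback genes and targets that passed, and the list's median was 0.18. HHEX, a homeobox factor of liver development, was at 7.92 to 8.06 with BRD8518, at 7.03, 6.95 and 6.93 with OSM and at 7.82, 7.67 and 7.76 with DMSO. OSM was again the low group, by -0.78 against DMSO, and the treatments differed by 1.02 ± 0.13.

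Several large differences in this direction came from probe sets that may read other transcripts. ARHGEF35, a near-identical copy of the exchange factor gene ARHGEF5, was at 5.49, 4.64 and 5.85 with BRD8518 and at 3.82, 3.56 and 3.53 with OSM, a difference of 1.69 ± 0.34. Its BRD8518 arrays were spread over more than 1 log2 unit, and DMSO lay at 5.67, 5.42 and 5.72. The pseudogene RPL23AP32, inside SPTBN1, differed by 1.30 ± 0.20 and the pseudogene FRG1HP by 1.06 ± 0.21. CMC1, needed for assembly of cytochrome c oxidase and overlapping AZI2, differed by 1.05 ± 0.19. In each of these 3, OSM was below DMSO, at -1.79, -1.31 and -0.91.

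Of 1098 measured symbols of microRNA precursors and hosts, 11 were higher with BRD8518 (1.00%, against 0.847% of all genes) and 6 lower (0.546%, against 1.50%), so the share higher was near that of all genes. The mature microRNA is not what such a probe set reads, but its precursor or the host transcript. MIR146A and MIR146B encode microRNAs known to dampen Toll-like receptor signalling, and their loci moved in opposite directions. The mature 5p sequences from RefSeq (GRCh38.p14) are printed because the products share a seed, which the capitals mark as bases 2 to 8. They come from chr5:160485372-160485393 and chr10:102436520-102436542, both on the plus strand.
hsa-miR-146a-5p: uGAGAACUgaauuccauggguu
hsa-miR-146b-5p: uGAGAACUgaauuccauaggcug
MIR146B was at 3.07, 3.02 and 3.20 with BRD8518, at 5.44, 6.09 and 5.97 with OSM and at 2.85, 3.24 and 3.26 with DMSO. Only OSM was high, and the difference was -2.73 ± 0.18 (adjusted p 8.3e-10 in limma's test). The BRD8518 and DMSO levels lay under 4, where differences tend to be compressed, so no fold is given. MIR146A was at 6.56, 6.55 and 6.58 with BRD8518, at 5.56, 5.63 and 5.69 with OSM and at 6.13, 6.02 and 6.17 with DMSO. DMSO lay between the treatments, which differed by 0.94 ± 0.10. OSM against DMSO passed at -0.48, while BRD8518 against DMSO, at 0.46, did not (adjusted p 0.051 in limma's test). MIR3142, in the same host transcript MIR3142HG as MIR146A, differed by 1.26 ± 0.20.

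The other precursors that were higher with BRD8518 all lie inside protein-coding genes. MIR554, inside the enamel gene TUFT1, was at 5.84, 5.60 and 5.60 with BRD8518, at 3.69, 4.05 and 3.87 with OSM and at a mean of 4.15 with DMSO. BRD8518 alone was high, by 1.81 ± 0.15 over OSM and 1.53 over DMSO. MIR608, inside the semaphorin gene SEMA4G, was at 7.53, 7.89 and 7.49 with BRD8518, at 5.99, 6.63 and 6.16 with OSM and at 7.38, 7.34 and 7.50 with DMSO. OSM alone was low, and the treatments differed by 1.37 ± 0.16. MIR548L, inside the DNA repair gene MRE11, gave the largest difference of this direction, 1.98 ± 0.35, but its OSM arrays were spread from 3.92 to 5.67. The sequences of these 3 are printed because they are the largest differences among these precursors apart from the dim MIR3646, and they share no seed with each other or with the pair above. They come from chr1:151545811-151545831 (plus strand), chr10:100975000-100975024 (plus strand) and chr11:94466545-94466566 (minus strand).
hsa-miR-554: gCUAGUCCugacucagccagu
hsa-miR-608: aGGGGUGGuguugggacagcuccgu
hsa-miR-548l: aAAAGUAUuugcggguuuuguc
MIR3646, inside the hepatocyte factor gene HNF4A, differed by 1.41 ± 0.29 at a low level of 3.40 with BRD8518 and 1.98 with OSM. MIR4796, inside ZBTB20, differed by 0.95 ± 0.21. Its call was lost without BRD8518 replicate 1 (0.81) or 3 (0.93) and without OSM replicate 1 (0.92) or 3 (0.88). MIR643, inside ZNF766, differed by 1.15 ± 0.24, and without OSM replicate 3 by 0.97, which did not pass.

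On the other side, MIR17HG, host of the miR-17-92 cluster, was at 4.67 to 5.00 with BRD8518, at 5.90, 6.34 and 6.00 with OSM and at 5.74, 5.73 and 5.93 with DMSO. BRD8518 was the low group, by -0.94 against DMSO, which passed, and by -1.22 ± 0.15 against OSM. MIR4521 differed by -1.38 ± 0.16, with BRD8518 below DMSO (-0.75) and OSM above it (0.63), and its second, very dim probe set gave -0.20. The mean of both gave -0.79. MIR22HG, host of miR-22, differed by -0.87 ± 0.08.

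The direct difference was also taken at 24 h, with 3 arrays each of the same doses, and the change in it was tested as an interaction, which shares no arrays between the times. It passed at 2163 genes (14.5%), of which 973 moved up for BRD8518 relative to OSM and 1190 down. Centring the arrays on their medians made the split 1167 up and 899 down. TRIB1 turned over, from -1.48 at 1 h to 0.64 at 24 h, a change of 2.12 ± 0.12 (adjusted p 2.9e-11 in limma's test). At 24 h it was at 10.50, 10.51 and 10.42 with BRD8518 and at 9.72, 9.92 and 9.88 with OSM, so the order of the groups was the reverse of that at 1 h without overlap at either time. EGR1 went from -0.39 to 1.10, with both treatments lower than at 1 h and OSM lower still. TRIB3 went from -0.32 to 1.36, with BRD8518 at 10.22, 10.35 and 10.28 and OSM at 8.83, 8.97 and 8.96 against DMSO at 8.93, 8.90 and 9.31. OSM and DMSO overlapped there, and BRD8518 was high. SOCS3 kept its sign, at -4.60 and then -3.23. Of the genes of the 1 h comparison, 4 more were picked after their values were seen. LBP widened from -3.60 to -5.48, while LIF turned from -0.72 to 2.48 and FOSL1 from -0.95 to 1.24. ARRDC3 was 1.63 and then 1.37, and its change did not pass (adjusted p 0.44 in limma's test).

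**Figure D4:**
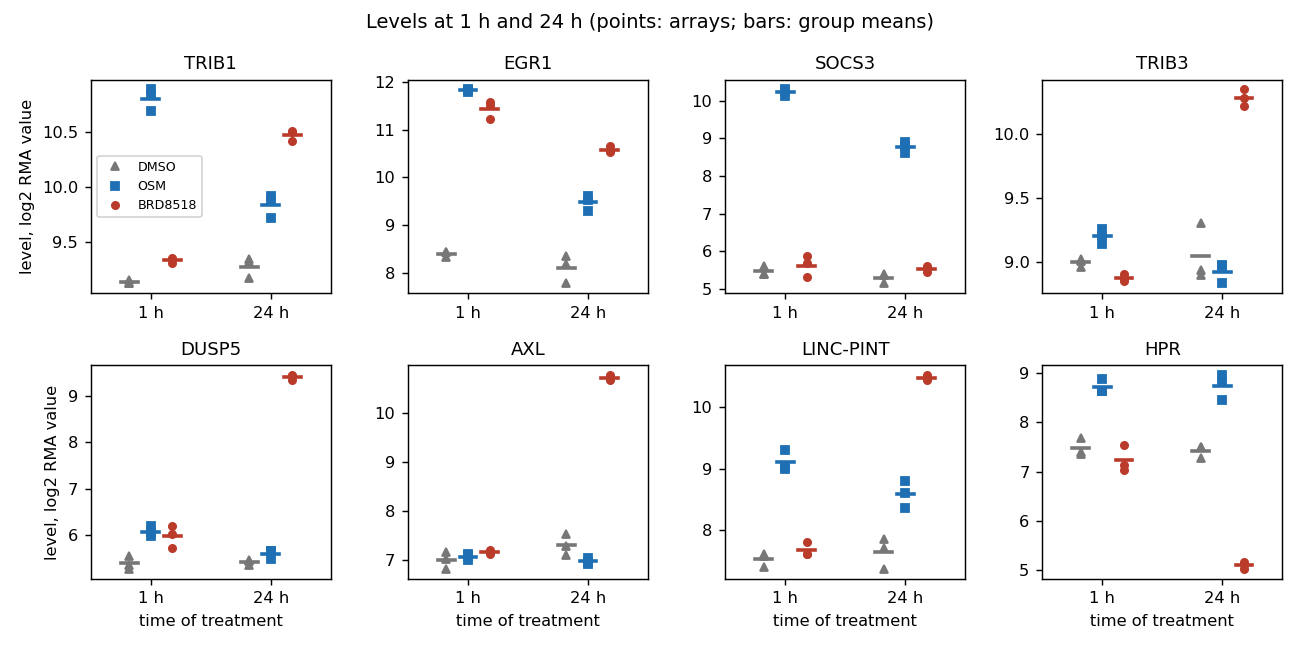
Level on each array (vertical axis, log2 RMA value, not from 0) at 1 h and 24 h for 8 genes, with points for arrays (circles BRD8518, squares OSM, triangles DMSO, 3 each) and short bars for group means. TRIB1 shows OSM highest at 1 h and BRD8518 highest at 24 h. DUSP5 and AXL show the treatments together at 1 h and BRD8518 far above at 24 h.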

How the data were processed

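The deposited values are log2 levels. According to the submitters' processing notes the authors used RMA and oligo, and versions are not given here. They were used as deposited. Symbols came from the platform table, which named 16098 of 53617 probe sets with 1 gene. The gene identifiers of all 16098 probe sets were in the RefSeq table. Each of 14884 genes was represented by its brightest probe set (mean over the 24 arrays), with no filter, and 2388 had a mean under 4, where differences tend to be compressed. RMA carries no detection call and no depth, so the number of arrays limits the precision.

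One limma model (version 3.58.1, R 4.3.3) held the 24 arrays, with a mean for each of 8 groups and eBayes defaults (total degrees of freedom 21.3). Tests were two-sided with Benjamini-Hochberg adjustment over all genes, and a gene passed at 0.05. Within each of the 3 groups at 1 h no arrays were duplicates, and pairs differed by an SD over genes of 0.166 to 0.216. The fit was tested on simulated data. Figures were drawn with matplotlib 3.10.9.

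The comparison and the gene lists (24 lists, 335 entries, 221 measured) were chosen with earlier results of these data known, and 1 list is not reported here. Genes named are the 15 largest differences each way among those that passed without overlap of arrays, a panel (TRIB1, TRIB2, TRIB3, APOB, MTTP, SOCS3, EGR1), up to 4 members per list and direction (or the largest where none passed), called microRNA genes, and the 5 largest interactions each way. Symbols, overlapping genes and sequences are credited to RefSeq (GRCh38.p14), which matched 15 microRNA symbols and 19 mature forms. Probe set coordinates were not used here. Alternatives were a filter at the median level, centring, quantile normalization, trend and robust moderation, fewer groups, dropping a 6 h DMSO array, array weights, other treatment of probe sets, the letter of the position code in the titles as a block or term, and leaving out each array.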

Additional observations from a re-analysis of the deposited data

Results flagged for a closer look

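The interaction test of limma passed at 2163 genes (14.5%), and 14 of them are given here. These are the 5 largest each way and the panel genes that passed. Their values are given as 24 h minus 1 h (log2). Genes that rose for BRD8518 relative to OSM were the leukocyte receptor gene LAIR2 by 4.45 (from -0.05 to 4.40), the ERK phosphatase DUSP5 by 3.91 (from -0.09 to 3.82), the receptor tyrosine kinase AXL by 3.65 (from 0.10 to 3.76) and the cytokine IL11 by 3.21 (from 0.04 to 3.25). None of these 4 passed between the treatments at 1 h. The noncoding RNA LINC-PINT changed by 3.32, from -1.44 to 1.88, and 1 of its other probe sets gave 0.36 at 1 h. Genes that fell were the homeobox gene HOXD1 at -2.67 (from 0.01 to -2.66), the receptor GPR119 at -2.53 (from -0.38 to -2.91), the sulfotransferase CHST15 at -2.31 (from -0.24 to -2.55), the ciliary gene IFT70A at -2.23 (from 0.25 to -1.98) and the haptoglobin-related HPR at -2.15 (from -1.48 to -3.63). The panel genes TRIB1 (2.12), TRIB3 (1.68), EGR1 (1.49) and SOCS3 (1.37) also changed, and their levels stand in the report. DUSP5 and IFT70A each have a second probe set, and the mean of both moved the change to 2.27 for DUSP5 and to -1.44 for IFT70A. Across the alternatives the change of LINC-PINT ran from 2.28 to 3.43. All 14 kept their call under every alternative run.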

How the results depend on the processing

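No paired analysis was possible because the labels give the arrays no shared replicate numbers. Between BRD8518 and OSM at 1 h, 349 genes passed (126 higher, 223 lower). Leaving out 1 array of these groups at a time gave 224 to 296 (67 to 114 higher, 157 to 201 lower). The fewest came without OSM replicate 3 (67 higher). Without BRD8518 replicate 1 or OSM replicate 1, 75 were higher. Without 6 h DMSO replicate 2, 716 passed (324 higher, 392 lower), and with array weights 934 (473 and 461). The 6 h DMSO array is outside the comparison and enters it only through the shared estimate of the spread. With the position letter as a fixed term, which leaves BRD8518 replicate 1 alone to set that group's level, 183 passed (53 and 130). The other settings kept the count within 1.5 times, from 321 to 413. Against DMSO, the 38 genes of BRD8518 became 76, 81 and 15 in these 3 fits and 25 to 38 with 1 array left out (fewest without BRD8518 replicate 2). The 423 genes of OSM became 806 and 1125 in the same 2 fits and 274 to 362 with 1 array left out (fewest without DMSO replicate 3). The 2163 interactions became 3448, 3759 and 1318 in these 3 fits, and 1744 to 2006 with 1 array left out. The cause of these shifts was not tested. Of 86 named results at 1 h, 78 passed, 50 of them under every setting, and 28 lost the call in at least 1. 0 changed sign past the threshold. ARHGEF35, ATF3, CCN2, DUSP1, FRG1HP, FST, MIR3142, MIR3646, OSMR and TPM1 lost it only with the position letter as a fixed term, at 1.85, -0.78, 0.46, -0.37, 1.12, 0.46, 1.05, 1.14, -0.34 and 0.41. DUSP10 (0.61), IGFBP1 (-0.43), LYVE1 (-0.61), MIR643 (1.15), SIK1 (-0.43) and STAT3 (-0.26) lost it there as well as with 1 array left out. In a fit of the compared groups only, CCL20 (-0.40) and STAT3 (-0.31) lost it, as did SIK1 (-0.38) after quantile normalization and DUSP10 (0.45) with each array centred. List counts moved by at most 4 per direction, and genes of low level have compressed differences.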

Other observations

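Zinc-finger genes whose symbol starts with ZNF were counted after their values were seen, so the count is a description. Of 491 measured, 18 were higher with BRD8518 than with OSM (3.67%, against 0.847% of all genes) and 8 were lower (1.63%, against 1.50%). Their median difference was 0.07, and 0.06 with each array centred. The higher ones were led by ZNF844 (0.89), ZNF133 (0.85) and ZNF57 (0.82). ZNF133 averaged 6.43 with BRD8518, 5.58 with OSM and 6.18 with DMSO, so OSM was the group apart. Against DMSO, 22 of the 491 were lower and 7 higher with OSM, and 0 were lower and 1 higher with BRD8518 (limma's test). The lower side was led by ZNF878 (-1.38) and ZNF101 (-1.04), which OSM raised over both other groups, with ZNF878 at 7.23 with BRD8518, 8.61 with OSM and 7.33 with DMSO. Under the alternatives the higher count ran from 9 to 61 and the lower count from 5 to 17.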
